A study of Danio rerio with 8 samples.

Results

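The genes described here are the cap-binding eIF4E family and its 4E-BP repressors in zebrafish hearts. Members were the 10 genes whose ZFIN symbol in the authors' RPM table equalled a name on a given list, of 31953 genes counted, and all 10 were present. They are 6 cap-binding genes (eif4ea, eif4eb, eif4e1c, eif4e1b, eif4e2 and eif4e3) and 4 repressor genes (eif4ebp1, eif4ebp2, eif4ebp3 and eif4ebp3l). Bulk RNA sequencing covered 8 libraries in 4 groups of 2. Control hearts came from adults of about 6 months, are labelled day 0 without injury and had the vehicle, 0.1% dimethyl sulfoxide, although the protocol also describes day 0 hearts as taken before the drug. The 3 dpi and 7 dpi hearts (days post injury) also came from adults of about 6 months. Their ventricular cardiomyocytes had been ablated with 5 mM metronidazole in the same vehicle, given for 48 hours. Ablation used the line vmhc:mCherry-NTR, in which the promoter of a ventricular myosin gene drives a bacterial nitroreductase that makes the drug toxic. That line is listed beside wild-type AB fish and the heat-shock lines hsWnt8:GFP and hsDKK1:GFP, and the labels tie no line to a library. No group is labelled as given the drug without injury, so drug and ablation cannot be told apart. Young hearts were untreated and came from larvae 3 days old. Adult libraries were pools of 4 to 6 hearts, and young ones of about 500.

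eIF4E grips the methylated cap at the start of messenger RNAs and joins the scaffold eIF4G and the helicase eIF4A in the complex eIF4F, which brings the small ribosomal subunit to the message. The 4E-BPs are small proteins that occupy the surface of eIF4E that eIF4G needs, and so block assembly of eIF4F. Phosphorylation of 4E-BPs by mTOR complex 1, a kinase that responds to amino acids and growth factors, releases eIF4E, a step that RNA levels do not show. Amino acids and mTOR activity in heart regeneration are the subject given by the series title, and the comparisons ask how transcripts of the cap-binding factors and of their repressors stand in injured, uninjured and larval hearts.

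Total counts ranged from 10868019 to 26628897 per library. The 7 dpi libraries stood apart: they were the deepest, yet 18744 and 17785 genes had a read in them against 20660 to 23312 in the others. Mitochondrially encoded genes took 24.7% and 28.2% of their reads against 7.14% to 15.3% elsewhere, and 74 of 76 ribosomal protein genes were higher than in control (median log2 fold change 2.17). Column names show 1 run prefix for control and 3 dpi, another for 7 dpi and another for young hearts. The prefix is read here as a sequencing run. Run therefore cannot be told apart from group where 7 dpi or young hearts are compared, although the labels describe the libraries as sequenced together. All 11 cardiomyocyte markers had reads, and their summed level was 57681 and 66586 CPM in control hearts and 19567 and 36836 CPM in 3 dpi hearts. It was 156782 and 117249 CPM in 7 dpi hearts and 4376 and 4267 CPM in young hearts, where the skeletal muscle gene mylpfa reached 439 and 427 CPM against at most 18.9 CPM in adults. A few abundant genes carry that sum. Of the 11 markers 4 were higher and 4 lower at 7 dpi than in control, and 1 higher and 1 lower at 3 dpi. Young hearts had 1 higher and 10 lower than control (median log2 fold change -3.34 against 0.14 for all genes). cmlc1, a myosin light chain gene, stood at 7977 and 12723 CPM in control hearts and 61140 and 38424 CPM in 7 dpi hearts, whereas ttn.1, a titin gene, stood at 669 and 170 CPM and at 21.6 and 14.9 CPM. In such pooled tissue, fewer cells of a type and less RNA per cell cannot be told apart. The part of tissue content in the levels of the members in young hearts was not tested.

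Of the 10 members, 9 passed the filter on low counts, and eif4e1b did not. CPM are counts scaled by TMM to a common library size, and a change is a log2 fold change from an edgeR quasi-likelihood test across 19330 genes, called at a Benjamini-Hochberg adjusted p under 0.05. At 3 dpi 2 members were higher and 4 lower than in control, where 9.05% of all genes were higher, 6.55% lower and 15.6% called. Those 6 calls became 2 without control replicate 2 and 3 without 3 dpi replicate 1. At 7 dpi 4 members were higher and 0 lower than in control, against 18.7% and 20.0% of all genes, with 38.7% called. Compared with 3 dpi, 4 were higher and 0 lower at 7 dpi, against 22.8% and 28.1% of all genes, with 50.9% called. For the members lower at 7 dpi, edgeR at an unadjusted p under 0.05 gave 1 against control (eif4e3) and 0 against 3 dpi, DESeq2 called 0 in both, and edgeR on library totals called 5 in both. In young hearts 3 were higher and 4 lower than in control (all genes 32.6% and 27.6%, called 60.2%) and 2 higher and 1 lower than at 3 dpi (28.7% and 25.3%, called 54.1%). Against 7 dpi, 3 were higher and 4 lower in young hearts (39.3% and 29.2%, called 68.5%). Calls are thus common among all genes in each comparison with 7 dpi or young hearts. The labels do not say whether the pools of a group came from separate clutches or days, and p-values measure the spread between these pools.

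**Figure D1:**
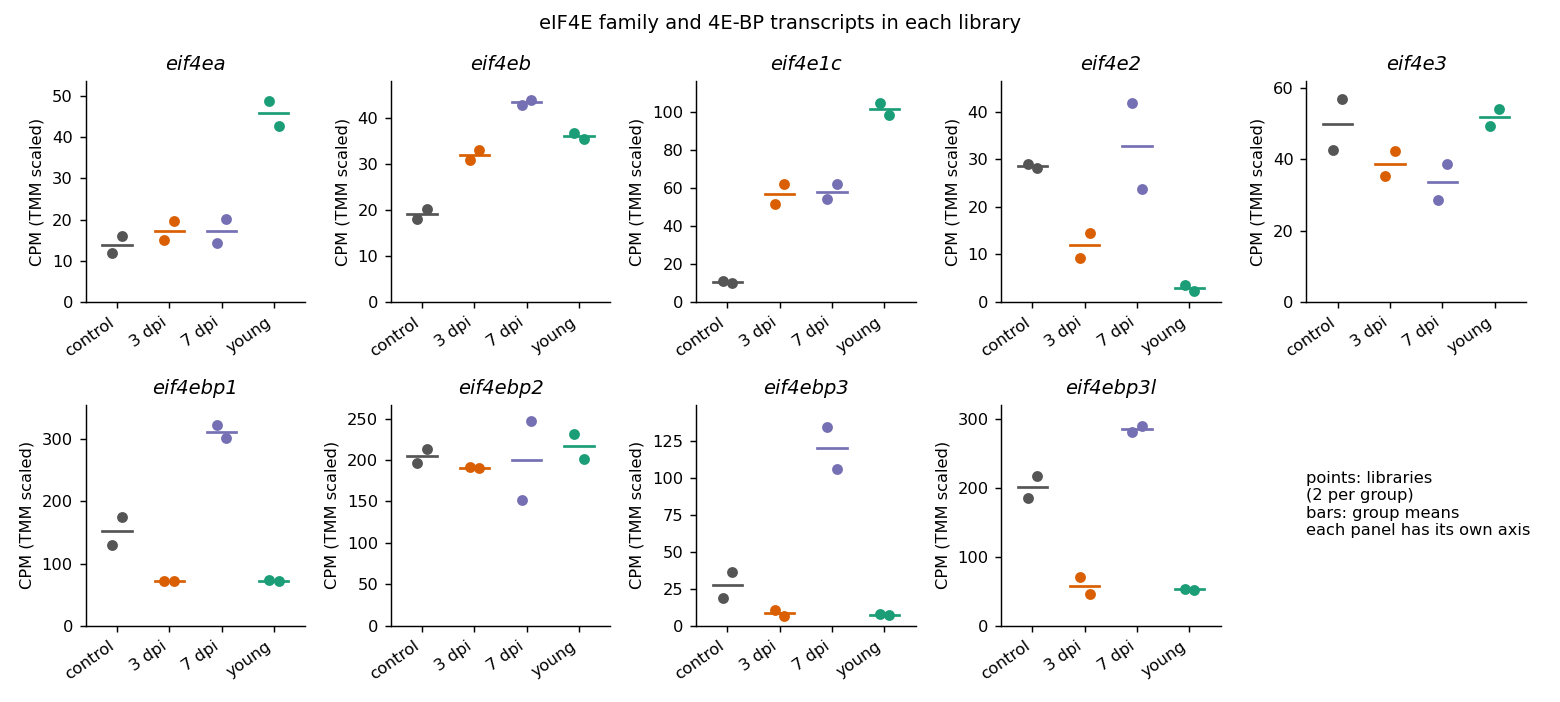
Level of the 9 tested members in each library, in CPM scaled by TMM on a linear axis from 0 that differs between panels; points are libraries and bars are means of the 2 libraries of a group. Both control libraries lie near 10 CPM for eif4e1c, below the other 6, and eif4ebp1, eif4ebp3 and eif4ebp3l are highest in 7 dpi, lower in control and lowest in 3 dpi and young hearts.

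eif4e1c had its lowest level in uninjured adult hearts and was higher in each of the other groups. It is a cap-binding paralog found in fish that has been studied in zebrafish growth and heart regeneration. eif4e1c (ENSDARG00000012274) stood at 10.8 and 9.80 CPM in control hearts, 51.6 and 62.0 CPM in 3 dpi hearts, 54.0 and 62.3 CPM in 7 dpi hearts, and 105 and 98.7 CPM in young hearts. The control libraries lay below all others, 3 dpi and 7 dpi overlapped, and young hearts were above both. The gene was 5.52-fold higher at 3 dpi than in control (log2 fold change 2.46, SE 0.21, n = 2 libraries per group, edgeR adjusted p = 0.000141) and 5.65-fold higher at 7 dpi (2.50, SE 0.22, edgeR adjusted p = 0.000165). Young hearts exceeded control 9.87-fold (3.30, SE 0.22, edgeR adjusted p = 1.67e-06), 3 dpi by 0.84 (SE 0.20) and 7 dpi by 0.81 (SE 0.20) on the log2 scale. The call against 7 dpi was lost without 7 dpi replicate 1 (0.67, edgeR adjusted p = 0.0549). Between 7 and 3 dpi the difference was 0.03 with a 95% interval of -0.41 to 0.47, and it was -1.65 when libraries were scaled by their totals alone (edgeR adjusted p = 0.000126), which moved the median of all genes by -1.68. With library totals eif4e1c was still higher than in control at 3 dpi (2.90), at 7 dpi (1.24) and in young hearts (3.90).

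Markers of other cells that also had their lowest sum in control were those of smooth muscle and the bulbus, at 470 and 501 CPM there, 1089 and 1128 CPM in 3 dpi hearts, 3282 and 3156 CPM in 7 dpi hearts, and 874 and 1113 CPM in young hearts. Of 8 tested entries of that list, 7 were higher than in control at 3 dpi and 8 at 7 dpi, but in young hearts 4 were higher and 2 lower. Most of the young sum was elnb (440 and 684 CPM) and acta2 (320 and 324 CPM). myl9a stood at 18.2 and 15.6 CPM in young hearts against 257 and 364 CPM in control. Macrophage markers summed to 638 and 847 CPM in control hearts, 1729 and 975 CPM in 3 dpi hearts, 805 and 766 CPM in 7 dpi hearts, and 4.91 and 4.90 CPM in young hearts. The part of these cells in the level of eif4e1c was not tested.

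The other class 1 genes, eif4ea and eif4eb, encode the canonical cap-binding factor, and their fold changes against control were smaller in size than those of eif4e1c. eif4eb (ENSDARG00000013274) stood at 18.1 and 20.2 CPM in control hearts, 30.9 and 33.1 CPM in 3 dpi hearts, 42.9 and 44.1 CPM in 7 dpi hearts, and 36.7 and 35.4 CPM in young hearts. No pair of groups overlapped, and control was lowest. Against control it was higher at 3 dpi by 0.74 (SE 0.19, edgeR adjusted p = 0.0286) and in young hearts by 0.91 (SE 0.19, edgeR adjusted p = 0.00227). At 7 dpi it was higher by 1.18 (SE 0.20, edgeR adjusted p = 0.00141) with TMM, but -0.07 with library totals. The call at 3 dpi was lost on leaving out either control library, either 3 dpi library or either young library (0.61 to 0.82, edgeR adjusted p = 0.0725 to 0.108), and with only those 2 groups in the fit (0.71, edgeR adjusted p = 0.110). With TMM young hearts did not differ past the threshold from their neighbours in the order of levels: young minus 3 dpi was 0.17 (interval -0.25 to 0.59) and young minus 7 dpi -0.27 (interval -0.69 to 0.15). With library totals young hearts were above 7 dpi by 1.59, which was called (edgeR adjusted p = 4.96e-05). Between 7 and 3 dpi the result for eif4eb depended on the method. It was 0.44 with TMM (edgeR adjusted p = 0.0767, not called) and 0.48 with DESeq2 (DESeq2 adjusted p = 0.0488, called higher). With library totals it was -1.25 (edgeR adjusted p = 0.000305, called lower).

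eif4ea was higher in larval hearts than in any adult group. eif4ea (ENSDARG00000077012) stood at 12.0 and 15.9 CPM in control hearts, 15.0 and 19.6 CPM in 3 dpi hearts, 14.3 and 20.2 CPM in 7 dpi hearts, and 48.8 and 42.8 CPM in young hearts. The adult groups overlapped one another, and both young libraries lay above all 6 adult ones. Young hearts were 3.27-fold above control (1.71, SE 0.26, edgeR adjusted p = 0.000289), 2.64-fold above 3 dpi and 2.66-fold above 7 dpi, each called. Against control the difference was 0.31 at 3 dpi (interval -0.27 to 0.89) and 0.30 at 7 dpi (interval -0.28 to 0.88), and neither was called with TMM. With library totals eif4ea was lower at 7 dpi than in control (-0.93, edgeR adjusted p = 0.0116) and than at 3 dpi (-1.69, edgeR adjusted p = 0.000313).

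eif4e1b, a class 1 gene known from oocytes and the germ line, was at the limit of detection. eif4e1b (ENSDARG00000014565) had 0 counts in 7 libraries and 2 counts in young replicate 2. A count of 0 allows up to 3 counts, or 0.113 to 0.276 CPM of these unscaled library totals, and this limit covers counting error only. Markers of oocytes and germ line summed to 2.75 to 15.6 CPM in the 8 libraries, with buc, a germ plasm gene, at 6.39 to 14.6 CPM in control and 7 dpi hearts and most of the sum there.

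eif4e2 encodes the class 2 cap-binding protein, also called 4EHP, which binds the cap without eIF4G and represses translation with partners such as GIGYF2 in mammals. It was lower at 3 dpi than in control, and lowest in larval hearts. eif4e2 (ENSDARG00000038585) stood at 29.1 and 28.1 CPM in control hearts, 9.32 and 14.5 CPM in 3 dpi hearts, 41.9 and 23.7 CPM in 7 dpi hearts, and 3.53 and 2.39 CPM in young hearts. Both young libraries were below every adult one, and the 7 dpi libraries lay on either side of control. Young hearts held 9.68-fold less than control (log2 fold change -3.28, SE 0.36, edgeR adjusted p = 3.12e-05), on 95 and 74 reads, 4.03-fold less than 3 dpi and 11.1-fold less than 7 dpi, and these 3 calls held with library totals (-2.68, -1.84 and -1.60).

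At 3 dpi eif4e2 was 2.40-fold lower than in control (-1.26, SE 0.33, edgeR adjusted p = 0.0282). That call was lost without control replicate 1 (-1.29, edgeR adjusted p = 0.0711), control replicate 2 (-1.28, edgeR adjusted p = 0.111) or 3 dpi replicate 1 (-0.97, edgeR adjusted p = 0.198), and with library totals (-0.84, edgeR adjusted p = 0.101). At 7 dpi it was 2.75-fold higher than at 3 dpi (1.46, SE 0.33, edgeR adjusted p = 0.00443), but the difference was -0.24 with library totals. Between 7 dpi and control it was 0.19 (interval -0.52 to 0.91), turning to -1.08 with library totals (edgeR adjusted p = 0.0177) and to -0.29 without 7 dpi replicate 1. A related gene outside the list, chosen after its values were seen, is eif4e2rs1, at 20.4 and 15.2 CPM in young hearts and 12.3 and 16.9 CPM in control hearts. Its difference of 0.28 (SE 0.25, edgeR adjusted p = 0.351) was not called, turned to -0.01 without control replicate 1 and was 0.90 with library totals (edgeR adjusted p = 0.00888). With TMM eif4e2rs1 was called higher at 7 dpi than in control (1.11, SE 0.26) and than at 3 dpi (0.98, SE 0.25). In young hearts it was called lower than at 7 dpi (-0.83, SE 0.25). These calls with 7 dpi were not examined with library totals. That scaling moved the median of all genes by -1.24 at 7 dpi against control, -1.68 between 7 and 3 dpi, and 1.85 in young against 7 dpi. The sources used here do not say how reads that match both genes were counted, so the split between them is uncertain.

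eif4e3, the class 3 member, binds the cap in an atypical way in mammals. eif4e3 (ENSDARG00000005078) stood at 42.6 and 57.0 CPM in control hearts, 35.3 and 42.2 CPM in 3 dpi hearts, 28.7 and 38.7 CPM in 7 dpi hearts, and 49.2 and 54.2 CPM in young hearts. Its group means spanned 0.63 on the log2 scale, against 3.29 for eif4e1c and 3.39 for eif4e2. The highest and the lowest group, young and 7 dpi, differed by 0.62 (SE 0.23, edgeR adjusted p = 0.0363), which was the 1 called difference of the 6. That call was lost without 7 dpi replicate 1 (0.38, edgeR adjusted p = 0.285), young replicate 1 (0.69, edgeR adjusted p = 0.0837) or young replicate 2 (0.56, edgeR adjusted p = 0.155). With library totals eif4e3 was also lower at 7 dpi than in control (-1.80, edgeR adjusted p = 0.000324) and than at 3 dpi (-1.88, edgeR adjusted p = 9.72e-05), and higher in young hearts than in control (0.67, edgeR adjusted p = 0.0268).

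**Figure D2:**
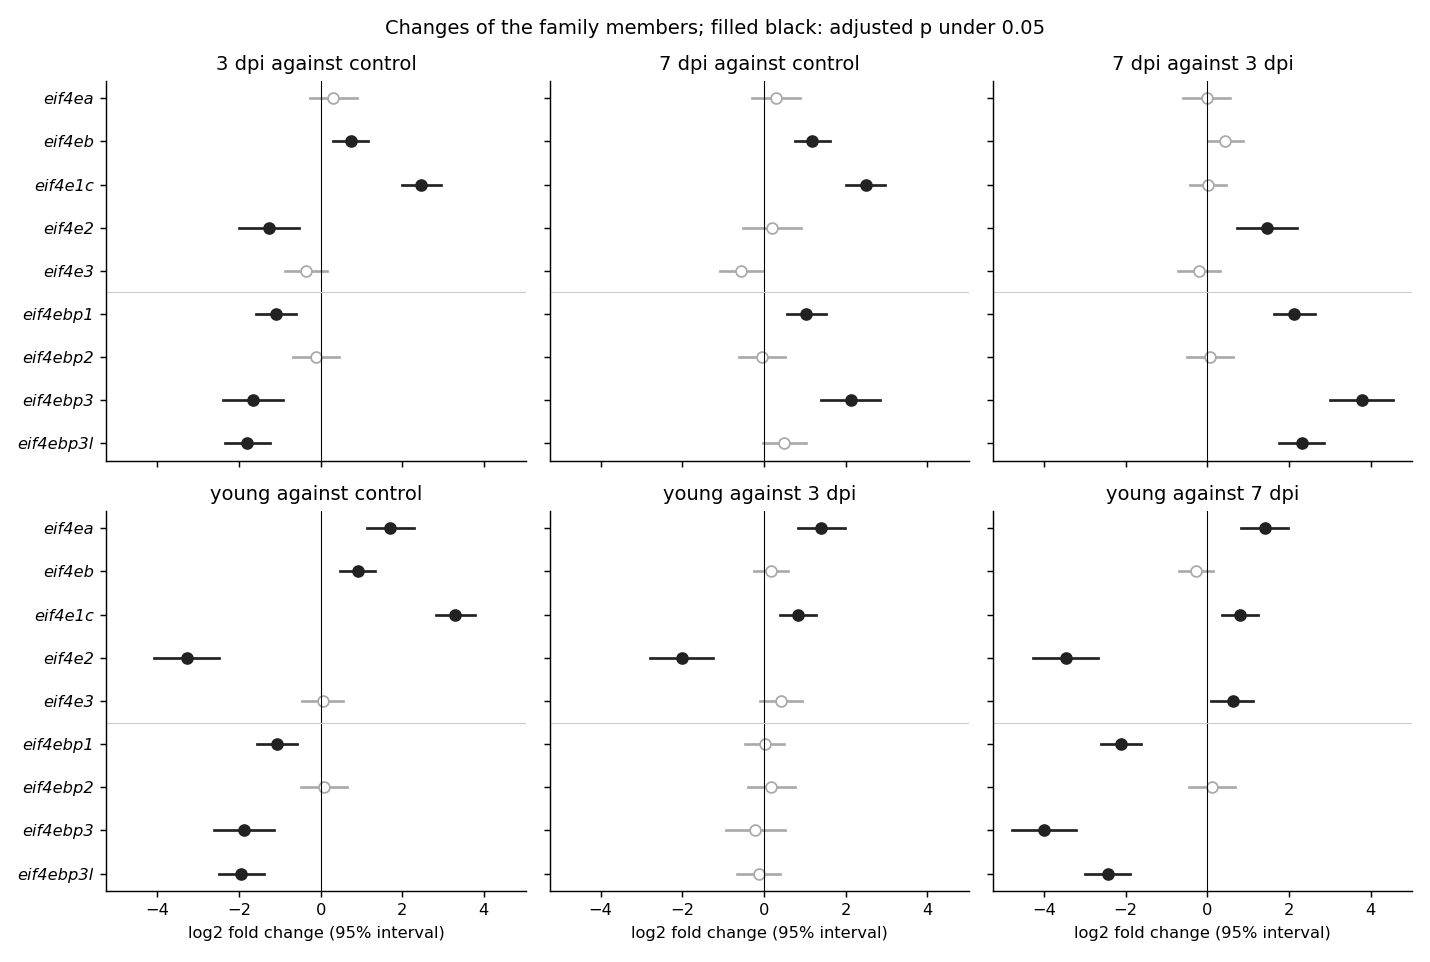
Log2 fold change of each tested member in the 6 comparisons, with 95% intervals from the edgeR fit (2 libraries per group); filled black points passed an adjusted p of 0.05 and open grey points did not. At 3 dpi against control eif4ebp1, eif4ebp3 and eif4ebp3l lie below 0 at -1.10, -1.66 and -1.80 while eif4ebp2 lies at -0.11.

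Among the repressors, eif4ebp1, eif4ebp3 and eif4ebp3l were lower at 3 dpi and in young hearts than in control, and higher at 7 dpi than at 3 dpi. eif4ebp1 encodes the best known 4E-BP, a direct substrate of mTOR complex 1. eif4ebp1 (ENSDARG00000043608) stood at 130 and 175 CPM in control hearts, 71.3 and 71.1 CPM in 3 dpi hearts, 323 and 302 CPM in 7 dpi hearts, and 73.1 and 71.5 CPM in young hearts. The 7 dpi libraries were highest, and the 3 dpi and young libraries lay below control. At 3 dpi it was 2.14-fold lower than in control (SE 0.22 on the log2 scale, edgeR adjusted p = 0.00911), a call lost without control replicate 2 (-0.86, edgeR adjusted p = 0.0581) or 3 dpi replicate 1 (-1.09, edgeR adjusted p = 0.0548). From 3 to 7 dpi the difference was 2.13 (SE 0.23, edgeR adjusted p = 6.41e-05), and 0.44 with library totals (edgeR adjusted p = 0.0549). Against control it was higher at 7 dpi by 1.04 (SE 0.22, edgeR adjusted p = 0.00442) with TMM but -0.20 with library totals. Young hearts differed from control by -1.07 (SE 0.22, edgeR adjusted p = 0.00173), or -0.45 with library totals (edgeR adjusted p = 0.0551), and from 7 dpi by -2.11 (SE 0.22), or -0.25 with library totals (edgeR adjusted p = 0.229).

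eif4ebp3, which encodes the 4E-BP3 type of repressor, had the widest range of the tested members, 3.97 on the log2 scale between group means. eif4ebp3 (ENSDARG00000054916) stood at 18.8 and 36.2 CPM in control hearts, 10.8 and 6.75 CPM in 3 dpi hearts, 135 and 106 CPM in 7 dpi hearts, and 7.66 and 7.41 CPM in young hearts. Both 7 dpi libraries were above the rest, and 3 dpi overlapped young. It was 3.15-fold lower at 3 dpi than in control (-1.66, SE 0.33, edgeR adjusted p = 0.00911), a call lost without control replicate 2 (-1.10, edgeR adjusted p = 0.0759). At 7 dpi it was 13.7-fold above 3 dpi (3.78, SE 0.35, edgeR adjusted p = 4.25e-05) and 4.36-fold above control (2.13, SE 0.33, edgeR adjusted p = 0.000972). Young hearts were 3.66-fold below control (-1.87, SE 0.33, edgeR adjusted p = 0.000693). These 4 calls held with library totals, at -1.17, 2.07, 0.90 and -1.23.

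eif4ebp3l, a paralog of eif4ebp3 studied in zebrafish skeletal muscle as an inhibitor of translation that responds to muscle activity, had the lowest log2 fold change of the members at 3 dpi. eif4ebp3l (ENSDARG00000041607) stood at 185 and 217 CPM in control hearts, 69.8 and 45.6 CPM in 3 dpi hearts, 281 and 290 CPM in 7 dpi hearts, and 53.4 and 51.7 CPM in young hearts. Young libraries lay within the range of 3 dpi, and control and 7 dpi were above both. It was 3.49-fold lower at 3 dpi than in control (-1.80, SE 0.25, edgeR adjusted p = 0.00163), 4.94-fold higher at 7 dpi than at 3 dpi (2.31, SE 0.25) and 3.83-fold lower in young hearts than in control (-1.94, SE 0.25, edgeR adjusted p = 8.67e-05). Those 3 calls held with library totals (-1.34, 0.60 and -1.32). Between 7 dpi and control the difference of 0.50 (SE 0.24, edgeR adjusted p = 0.120) was not called, and it turned to -0.74 with library totals (edgeR adjusted p = 0.0249).

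eif4ebp2, known in mammals as the main 4E-BP of brain, was called in 0 of 6 comparisons by edgeR, in 0 at an unadjusted p under 0.05 and in 0 by DESeq2. eif4ebp2 (ENSDARG00000031819) stood at 197 and 213 CPM in control hearts, 192 and 190 CPM in 3 dpi hearts, 152 and 247 CPM in 7 dpi hearts, and 232 and 201 CPM in young hearts. The 7 dpi libraries spanned the values of all other groups. Its differences ran from -0.11 at 3 dpi against control (interval -0.67 to 0.46) to 0.18 for young minus 3 dpi (interval -0.38 to 0.75). The fold changes of the other 3 repressors at 3 dpi lie below that first interval. The interval of eif4ebp1 there, -1.58 to -0.61, overlaps it, and the genes were not tested against one another. With library totals it was lower at 7 dpi than in control (-1.28, edgeR adjusted p = 0.00305) and than at 3 dpi (-1.62, edgeR adjusted p = 0.000539), and higher in young hearts than in control (0.68, edgeR adjusted p = 0.0477) and than at 7 dpi (1.97, edgeR adjusted p = 0.000126).

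Between young and 3 dpi hearts, no repressor passed the threshold. The log2 difference, young minus 3 dpi, was 0.02 for eif4ebp1 (interval -0.46 to 0.50), -0.21 for eif4ebp3 (interval -0.94 to 0.51) and -0.13 for eif4ebp3l (interval -0.67 to 0.40, and 0.02 with library totals). Over the 8 libraries log2 CPM of eif4ebp1 correlated with that of eif4ebp3 at Pearson r = 0.99 and with that of eif4ebp3l at 0.95. That describes libraries that differ in depth and share a run prefix within groups, and between control and 3 dpi. The summed cardiomyocyte markers given above had the same order of groups from 7 dpi to control to 3 dpi, but some markers of that list, such as ttn.1, did not share it. Adult erythroid markers summed to 5208 and 14535 CPM in control hearts, 2896 and 3683 CPM in 3 dpi hearts, 18856 and 47369 CPM in 7 dpi hearts, and 40.1 and 33.3 CPM in young hearts. Skeletal muscle markers summed to 2823 and 3623 CPM in control hearts, 475 and 1114 CPM in 3 dpi hearts, 9230 and 7920 CPM in 7 dpi hearts, and 1511 and 1502 CPM in young hearts. Most of that sum in adults is ckma, a muscle creatine kinase gene, at 470 to 9116 CPM in the adult libraries. The adult sum thus mainly describes that gene, and the amount of skeletal muscle in adult samples cannot be read from it. In young hearts 9 of the 11 tested genes of the list were higher and 1 lower than in control. Ribosomal protein genes, which like the 4E-BP genes encode small proteins, had a median log2 fold change of 2.17 at 7 dpi against control and 2.63 against 3 dpi. The part of these cells, and of a library bias towards such genes, in the levels of the repressors was not tested.

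**Figure D3:**
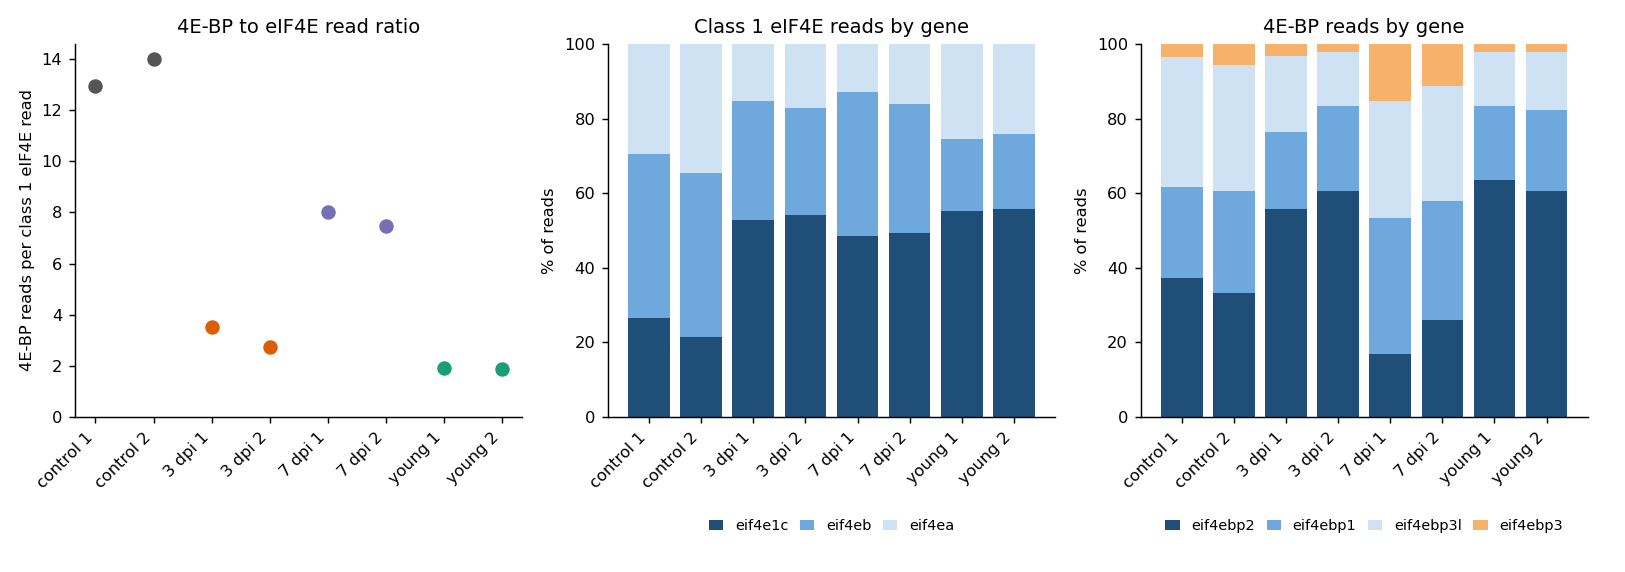
Left, reads of the 4 4E-BP genes per read of class 1 eIF4E genes in each library; middle and right, the share of each gene in the class 1 reads and in the 4E-BP reads, in %. The ratio is 12.96 and 13.98 in control and at most 3.53 in 3 dpi and young hearts, and eif4e1c holds 48.6% to 55.8% of class 1 reads in the 6 libraries outside control.

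Ratios between members within a library do not depend on scaling. Reads of the 4 repressors per read of the class 1 cap-binding genes numbered 12.96 and 13.98 in control hearts, 3.53 and 2.73 in 3 dpi hearts, 8.01 and 7.46 in 7 dpi hearts, and 1.93 and 1.88 in young hearts. The groups did not overlap, with control highest and young lowest. These are read ratios, which depend on transcript length, so only their differences between libraries are described. A library bias towards genes for small proteins, raised above for the repressors, could also shift the ratios between libraries and was not tested. Without eif4ebp2 the ratio was 8.14 and 9.33 in control hearts, 1.56 and 1.08 in 3 dpi hearts, 6.65 and 5.51 in 7 dpi hearts, and 0.706 and 0.739 in young hearts. With eif4e2 and eif4e3 added to the cap-binding reads, it was 4.71 and 4.89 in control hearts, 2.42 and 1.83 in 3 dpi hearts, 4.90 and 5.00 in 7 dpi hearts, and 1.51 and 1.42 in young hearts, so that 7 dpi no longer lay below control. With 2 libraries on each side, the smallest p of an exact permutation test is 0.333, and no test is given for these ratios.

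The makeup of each side also differed between groups. eif4e1c gave 26.4% (exact Clopper-Pearson 95% interval 22.6 to 30.5) and 21.4% (18.5 to 24.4) of class 1 reads in control hearts, on 500 and 777 reads. Its share was 52.9% and 54.1% in 3 dpi hearts, 48.6% and 49.2% in 7 dpi hearts, and 55.1% and 55.8% in young hearts, all above the intervals of control. eif4eb had the largest share in control, 44.2% and 44.0%. The share of eif4ea was 29.4% and 34.6% in control and 12.8% to 17.1% in the 4 injured libraries, although its mean CPM with TMM was not lower there. With library totals eif4ea was lower at 7 dpi than in control (-0.93, edgeR adjusted p = 0.0116). Of the 4E-BP reads, eif4ebp2 gave 37.2% and 33.3% in control hearts, 55.8% and 60.6% in 3 dpi hearts, 17.0% and 26.1% in 7 dpi hearts, and 63.4% and 60.6% in young hearts. eif4ebp3 was the smallest contributor, at 2.09% to 5.64% outside 7 dpi and 15.1% and 11.2% there. The labels mention no molecular identifiers, and these intervals cover only counting error.

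Scaling mattered most for comparisons with 7 dpi. TMM assumes that most genes do not move, yet with TMM 50.9% of all genes were called between 7 and 3 dpi. In young hearts 60.2% were called against control, 54.1% against 3 dpi and 68.5% against 7 dpi, so that premise is in doubt there. Compared with TMM, scaling by totals shifted the median of all genes, in log2 fold change, by 0.44 at 3 dpi and by -1.24 at 7 dpi against control, and by -1.68 between 7 and 3 dpi. The share of called genes that were higher went from 58.0% to 86.8%, from 48.3% to 6.19% and from 44.8% to 6.20% in these comparisons. For young hearts the median moved by 0.60 against control, 0.17 against 3 dpi and 1.85 against 7 dpi, with shares going from 54.1% to 71.8%, from 53.1% to 59.9% and from 57.4% to 88.3%. With library totals 2 members were higher at 7 dpi than in control, eif4e1c and eif4ebp3, and 5 were lower.

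**Figure D4:**
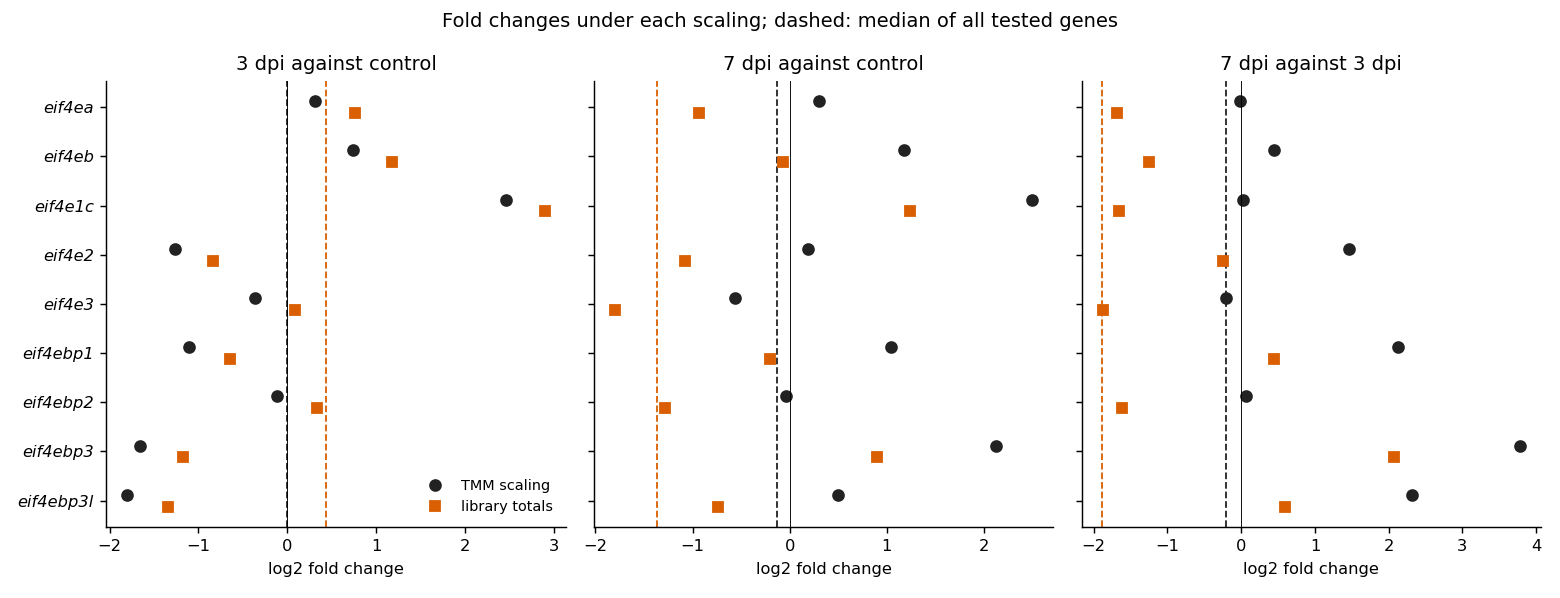
Log2 fold change of each tested member with TMM scaling (circles) and library totals (squares) in the 3 adult comparisons; dashed lines are the median of all tested genes with each scaling. At 7 dpi against control eif4e1c (2.50 and 1.24) and eif4ebp3 (2.13 and 0.90) lie above 0 with both scalings, while eif4eb (1.18 and -0.07) and eif4ebp1 (1.04 and -0.20) do so with TMM alone.

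Genes whose log2 CPM followed eif4e1c most closely over the 8 libraries were sought among 10985 genes with a symbol and at least 10 CPM in their highest group. The first 5 were abcf2a (Pearson r = 0.991), mid1ip1b (0.986), vcp (0.9806), tuba8l (0.9803) and ywhaqa (0.9799). abcf2a stood at 35.6 and 41.5 CPM in control hearts, 116 and 130 CPM in 3 dpi hearts, 121 and 122 CPM in 7 dpi hearts, and 216 and 206 CPM in young hearts. With 4 groups few patterns are possible, and 36 genes had r above 0.95 with eif4e1c. For eif4ebp3, the tested member with the widest range, 378 genes did, led by r3hcc1 (0.9919), sirt5 (0.9915), zgc:92606 (0.9907), eif4ebp1 (0.9906) and srsf5a (0.9902). These correlations describe libraries that differ in depth and share a run prefix within groups, and between control and 3 dpi. They carry no test.

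A list of cap complex genes holds the eIF4G and eIF4A families, their helpers and poly(A)-binding protein genes, and not all encode proteins that bind eIF4E. Its genes were called in both directions at 3 dpi. Of 19 tested, 5 were higher and 5 lower than in control, or 8 and 3 with library totals. Their median was -0.29 against 0 for all genes. eif4g2a, named for the eIF4G family, rose from a mean of 59.1 to 171 CPM (1.53, SE 0.22), and whether its product binds eIF4E was not examined. pabpc4, a poly(A)-binding protein gene, fell from 652 to 166 CPM (-1.97, SE 0.33). The 10 calls became 5 without control replicate 2 and 3 without 3 dpi replicate 1. At 7 dpi 8 were higher and 2 lower than in control (median 0.47 against -0.13), or 1 and 10 with library totals, and the 10 calls became 5 without control replicate 1 and 6 without 7 dpi replicate 2. paip2b, a gene for an inhibitor of poly(A)-binding protein, was higher by 1.92 (SE 0.27), and eif4h, a helper of eIF4A, by 1.19 (SE 0.20) but -0.06 with library totals. In young hearts 6 were higher and 6 lower than in control, or 10 and 4 with library totals, with pabpc1b, another poly(A)-binding protein gene, at a mean of 22.2 CPM against 623 CPM (-4.81, SE 0.29). The comparisons of 7 with 3 dpi, young with 3 dpi and young with 7 dpi gave 10 and 5, 6 and 6, and 7 and 8, or 2 and 13, 7 and 5, and 12 and 4 with library totals. Of all genes, 15.6% were called at 3 dpi, 38.7% at 7 dpi and 60.2% in young hearts against control. In the last 3 comparisons 50.9%, 54.1% and 68.5% of all genes were called.

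A list headed other eIF4E-binding proteins had 10 tested genes, and whether each product binds eIF4E was not examined. Of these genes 0 were higher and 2 lower at 3 dpi than in control, with 0 higher at an unadjusted p under 0.05 and 0 by DESeq2. The lower ones were gigyf1b, of the GIGYF partners of 4EHP (-0.89, SE 0.21), and ddx6, an RNA helicase gene (-1.05, SE 0.29). Both calls were lost with only the control and 3 dpi libraries in the fit (-0.92 and -1.08, edgeR adjusted p = 0.0561 and 0.0612). Neither was called with library totals, and the 2 calls became 0 without control replicate 2 or 3 dpi replicate 1 and 1 without 3 dpi replicate 2 or either young library. At 7 dpi 2 were higher and 2 lower than in control, or 0 and 8 with library totals, among them larp1, a repressor of ribosomal protein messages, at 1.12 (SE 0.22) but -0.15 with library totals. gigyf1a was at -1.54 (SE 0.39), a call lost without control replicate 1 (-0.95, edgeR adjusted p = 0.0921). The 4 calls became 1 without control replicate 1 and 2 without control replicate 2, 7 dpi replicate 2 or either young library. Young hearts had 1 higher and 4 lower than control, or 5 and 2 with library totals, with gigyf1b at -1.77 (SE 0.21). The 5 TMM calls became 3 without young replicate 1 and 2 without young replicate 2. Of all genes, 15.6% were called at 3 dpi, 38.7% at 7 dpi and 60.2% in young hearts against control.

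The list of mTOR complex 1 and its direct inputs also holds genes downstream of it: rps6kb1a, rps6kb1b, rps6, eef2k, pdcd4a and pdcd4b. Of its 25 tested genes 1 was higher and 7 lower at 3 dpi than in control (median -0.28 against 0), or 5 higher and 1 lower with library totals. The higher gene was rps6kb1a, and the lower ones included eef2k, pdcd4a and pdcd4b, so these counts mix inputs and downstream genes. akt1s1, which encodes the inhibitor PRAS40, fell from a mean of 122 to 48.8 CPM (-1.32, SE 0.24, and -0.86 with library totals). eef2k, the kinase that restrains elongation, went from 160 to 62.8 CPM (-1.35, SE 0.25), a call lost with library totals (-0.91, edgeR adjusted p = 0.0502). The 8 calls became 4 without control replicate 2, 3 without 3 dpi replicate 1 and 5 without either young library. At 7 dpi 8 were higher and 6 lower than in control, or 0 and 13 with library totals, with deptor, another inhibitor, at -2.19 (SE 0.29) and mtor itself at -1.14 (SE 0.22). Those 14 calls became 5 without control replicate 1, 7 without 7 dpi replicate 1 and 6 without 7 dpi replicate 2. Young hearts had 5 higher and 11 lower than control, or 10 and 7 with library totals, led by tsc1a, of the inhibitory TSC complex (-2.75, SE 0.31), and eef2k (-2.29, SE 0.26). Of all genes, 15.6% were called at 3 dpi, 38.7% at 7 dpi and 60.2% in young hearts against control.

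In the list of nuclear cap and cap handling genes, 0 of 9 were higher and 1 lower at 3 dpi than in control, with 0 higher at an unadjusted p under 0.05 and 0 by DESeq2. The gene was dcp2, which encodes a decapping enzyme (-0.90, SE 0.24, edgeR adjusted p = 0.0295), and the call was lost with library totals and without control replicate 2, either 3 dpi library or young replicate 2 (edgeR adjusted p = 0.0514 to 0.193). With only the control and 3 dpi libraries in the fit the dcp2 call was also lost (-0.93, edgeR adjusted p = 0.0665). At 7 dpi 5 were higher and 0 lower than in control, with 0 lower at an unadjusted p under 0.05 and 0 by DESeq2, but 1 higher and 5 lower by edgeR on library totals. ncbp2, of the nuclear cap-binding complex, was higher by 2.12 (SE 0.29, and 0.89 with library totals), and rnmt, the cap methyltransferase gene, by 0.87 (SE 0.20, but -0.37 with library totals). The 5 calls became 1 without control replicate 1 and 3 without either 7 dpi library. In young hearts 2 were higher and 4 lower than in control, or 3 and 0 with library totals, and these 6 calls became 3 without young replicate 2. Of all genes, 15.6% were called at 3 dpi, 38.7% at 7 dpi and 60.2% in young hearts against control.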

How the data were processed

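Per the submitters' processing notes, reads were aligned to GRCz10 with TopHat2 2.0.13 and counted with HTSeq; the authors deposited these raw counts per Ensembl gene. Annotation release and strand setting were not stated. The authors' RPM table covers the adult libraries and gave the symbols; its values equal counts scaled by library totals, within a relative tolerance of 1e-04, for 100% of 23350 genes. Its control replicate numbers are the reverse of the titles, which were followed.

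The analysis used edgeR 4.0.16 (R 4.3.3): filterByExpr (19330 genes), TMM, and 1 quasi-likelihood fit of 8 libraries, with 4 residual degrees of freedom and Benjamini-Hochberg adjustment at 0.05. Standard errors and 95% intervals were back-calculated from the F statistic. Log2 CPM used a prior count of 2. Alternatives were DESeq2 1.42.0, other scalings and filters, a replicate block and left-out libraries. The procedure was tested on simulated data in which few genes changed, as many up as down. That setting cannot show how scaling behaves where many genes change, as between these groups. The members, gene lists and tests were chosen with earlier results of these data known. The named genes of a pathway list come from the 2 called genes with the smallest p in each comparison with control. Sequences and protein lengths were not used here.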

Additional observations from a re-analysis of the deposited data

Results flagged for a closer look

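The change from control differed between 3 and 7 dpi for 4 members in the direct contrast of the injured groups, in which the shared control cancels. The log2 difference, 7 dpi minus 3 dpi, was 1.46 for eif4e2, 2.13 for eif4ebp1, 3.78 for eif4ebp3 and 2.31 for eif4ebp3l (edgeR quasi-likelihood, both 7 dpi libraries above both 3 dpi libraries for each). Over all genes 50.9% were called in this contrast. With library totals the values were -0.24, 0.44, 2.07 and 0.60, and those of eif4ebp3 and eif4ebp3l were still called. The 7 dpi libraries carry another run prefix than the 3 dpi libraries, so run and time cannot be told apart.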

How the results depend on the processing

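Counts of called members were 6, 4, 4, 7, 3 and 7 for 3 dpi against control, 7 dpi against control, 7 against 3 dpi, and young against control, 3 dpi and 7 dpi. Leaving out 1 library gave 2 to 6, 4 to 4, 4 to 4, 7 to 7, 3 to 3 and 5 to 7; at 3 dpi the count was 2 without control replicate 2 and 3 without 3 dpi replicate 1. Over all genes the ranges were 985 to 3287, 4093 to 7750, 7911 to 9840, 8296 to 12204, 6792 to 11058 and 10473 to 13651. Counts moved over 1.5 times were 1050 (without control replicate 2) and 985 (without 3 dpi replicate 1) at 3 dpi, 4093 (without control replicate 1) at 7 dpi against control, and 6792 (without young replicate 2) in young against 3 dpi. With only the compared groups 3 dpi had 1823 called genes against 3015. The same fit gave 5 instead of 10 calls for the cap complex list and 4 instead of 8 for the mTOR complex 1 list. It gave 0 instead of 2 for the other eIF4E-binding list and 0 instead of 1 for the nuclear cap list. Library totals called 11770 genes at 7 dpi against control instead of 7486, and 7 members both there and against 3 dpi.

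Library totals reversed these log2 values: at 3 dpi against control eif4e3 (0.09) and eif4ebp2 (0.34); at 7 dpi against control eif4ea (-0.93), eif4eb (-0.07), eif4e2 (-1.08), eif4ebp1 (-0.20) and eif4ebp3l (-0.74); at 7 against 3 dpi eif4e1c (-1.65), eif4eb (-1.25), eif4e2 (-0.24) and eif4ebp2 (-1.62); young against 7 dpi eif4eb (1.59); young against 3 dpi eif4ebp3l (0.02). Other reversals concerned uncalled values near 0: eif4e1c at 7 against 3 dpi without a filter (-0.01); eif4ea there with DESeq2 or its size factors or 2 groups (0.03); eif4ebp2 at 7 dpi against control with DESeq2 or its size factors (0.01); eif4ebp1 in young against 3 dpi with 2 groups (-0.02). Without 1 library eif4e1c at 7 against 3 dpi ran from -0.11 to 0.16, eif4ea from -0.30 to 0.22 and eif4ebp2 from -0.35 to 0.37. At 7 dpi against control eif4e2 ran from -0.29 to 0.51, eif4ea from -0.01 to 0.51 and eif4ebp2 from -0.47 to 0.24. In young hearts eif4e3 ran from -0.22 to 0.28 and eif4ebp2 from -0.05 to 0.19 against control; eif4ebp1 from -0.02 to 0.05, eif4ebp3 from -0.52 to 0.14 and eif4ebp3l from -0.41 to 0.19 against 3 dpi; and eif4ebp2 from -0.23 to 0.49 against 7 dpi. Among pathway genes against control, library totals reversed eif4h (-0.06), larp1 (-0.15) and rnmt (-0.37) at 7 dpi, and eif4e2rs1 in young hearts ran from -0.01 to 0.53 without 1 library. Within a comparison library totals move all genes by a near common amount, at the median -1.24 at 7 dpi against control and -1.68 at 7 against 3 dpi. Neither why the scalings differ nor the cause of the other changes was tested.

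With alternatives added after seeing the data, leaving out the 7 dpi libraries gave 0 for eif4e3 in young against control and -0.01 for eif4ebp1 in young against 3 dpi, and 6, 7 and 3 called members; leaving out mitochondrial genes changed no member's call. With a replicate block the called members numbered 6, 4, 4, 7, 3 and 7, as without it, and 2650 genes were called at 3 dpi. Same-numbered libraries did not deviate together (correlations of deviations -0.14 to 0.07), so no pairing by number was seen. With 2 libraries per group this cannot exclude a shared tank, clutch or day. The control numbers also differ between the titles and the authors' RPM table. The planned offset for protein length was not run. Depth limits eif4e1b (2 counts in all) and eif4e2 in young hearts (95 and 74 counts).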
